A study of Homo sapiens with 4 samples.

Results

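The m6A peaks described here had no partner in the other condition and carried a score of 3100 or above, the value at which the score of the peak lists was limited. They were chosen by 2 measured values, the score and the lack of overlap, from the m6A peak lists of FTO knockdown and control RWPE1 cells. There were 807 such peaks among the 20410 peaks of both lists. The FTO knockdown list (shFTO list, labelled sh) held 494 of them among 10323 peaks, and the control list (shCtrl list, labelled Ctrl) held 313 among 10087 peaks. A peak counted as without a partner (list-specific) when it shared no base with any peak of the other list, with strand ignored.

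RWPE1 is a line of human prostate epithelium that was immortalized with papillomavirus genes. The cells had been infected with lentivirus carrying either an shRNA against a single FTO sequence or the vector control, and both conditions were kept under puromycin as stable lines. Each condition had 1 m6A immunoprecipitation (IP) library and 1 input library, 4 libraries in all, so no difference between shFTO and shCtrl cells has a replicate check and none was tested. The lists hold no reads and no gene names, and the depth behind a peak is therefore unknown. The submitters' processing notes name hg19, and all positions are as listed, counted from 1. No gene was assigned, because the gene table used here is of another build, and the knockdown of FTO itself was not checked in these lists.

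m6A is the methylation of adenosine within RNA. It is placed on nascent transcripts by the METTL3 and METTL14 methyltransferase complex, removed by the demethylases FTO and ALKBH5, and bound by reader proteins such as those of the YTH family, which act on the stability and translation of the RNA. It is known to be frequent in long internal exons and around stop codons. MeRIP-seq sequences the RNA fragments that bind to an anti-m6A antibody, so a peak marks a stretch of fragments around 1 or several methylated sites and not a single base.

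The score was read as 10 times the negative log10 of the P value that the authors' peak caller gave to a peak. Most of the 807 peaks carried exactly 3100, namely 471 of 494 in the shFTO list and 296 of 313 in the shCtrl list. As background, early versions of the peak caller MACS, in whose form the peaks are named, write 3100 for a P value that is too small to be stored. The other 23 shFTO and 17 shCtrl peaks had scores from 3103.47 to 3233.06 and from 3122.75 to 3228.29. The smallest positive number in double precision corresponds to a score of 3233.06, which is also the highest score of the shFTO list. A score above 3100 therefore does not rank a peak above one at 3100. Just under the limit, the 3 nearest list-specific scores were 3096.13, 3091.74 and 3087.89 in the shFTO list and 3095.15, 3091.32 and 3090.49 in the shCtrl list. Between 3000 and 3100 there were 13 list-specific peaks in the shFTO list and 9 in the shCtrl list. Peaks thus piled up at the limit, while the scores just under it were sparse.

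The peaks above 3100 had widths in the range of those at 3100. Their median width was 756 bp in the shFTO list and 780 bp in the shCtrl list, against 857 bp and 823.5 bp for the peaks at exactly 3100. Among the 23 of the shFTO list, the peak at chr12:33030780-33031477 (minus strand, 698 bp, score 3209.17) lay 145902 bp from the nearest shCtrl peak. The shFTO peak at chr4:1713857-1714109 (minus strand, 253 bp, score 3186.85) lay 111 bp from a shCtrl peak with a score of 912.34 on the same strand. Among the 17 of the shCtrl list, the peak at chr16:29857479-29857605 (plus strand, 127 bp, score 3214.8) was 9199 bp from the nearest shFTO peak, and the peak at chr15:86122161-86125338 (plus strand, 3178 bp, score 3204.24) was 3594 bp from one.

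Peaks with a score of 3100 or above were somewhat less often without a partner than all peaks of their list. In the shFTO list 494 of 639 such peaks were list-specific, 77.3% (95% Wilson interval 73.9% to 80.4%), while 80.4% of all peaks of that list were. The shCtrl share was 73.3% (313 of 427, 68.9% to 77.3%), while 79.8% of all peaks were list-specific. These intervals cover counting error only, here and below. Read the other way, 5.95% of the list-specific and 7.18% of the shared shFTO peaks reached 3100, and 3.89% of the list-specific and 5.61% of the shared shCtrl peaks did, while the shares among all peaks were 6.19% and 4.23%.

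The list-specific share fell from the lowest scores to those of 500 to 1000 and changed little above them. For shFTO it was 87.4% under a score of 100, 73.75% from 500 to 1000, 75.2% from 2000 to 3100 and 77.3% at 3100 or above. The same classes of the shCtrl list had 89.8%, 68.7%, 66.9% and 73.3%. The share was thus lowest between 500 and 1000 in the shFTO list and between 2000 and 3100 in the shCtrl list, and the class at the limit lay above these lowest values in both.

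**Figure D1:**
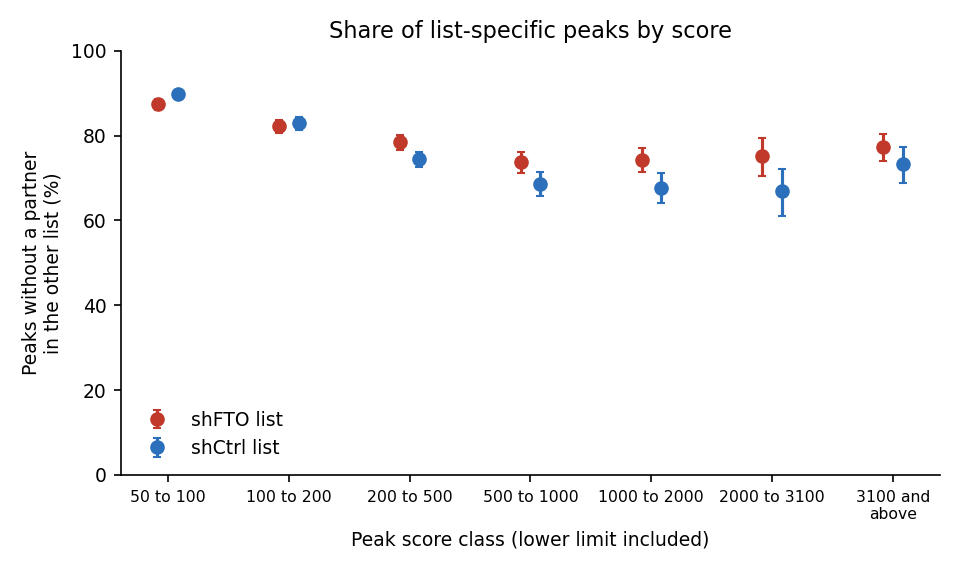
Percent of peaks without a partner in the other list (y axis) by class of peak score (x axis), for the shFTO and shCtrl lists, with 95% Wilson intervals as bars. At 3100 and above, 77.3% of the shFTO and 73.3% of the shCtrl peaks had no partner.

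Where a peak at the limit did have a partner, the partner was mostly at the limit too. Of the 114 shared shCtrl peaks at 3100 or above, 95 overlapped a shFTO peak that also reached 3100, 83.3% (75.4% to 89.1%). Of the 145 shared shFTO peaks at 3100 or above, 95 overlapped a shCtrl peak at 3100 or above, 65.5% (57.5% to 72.8%). Both counts of 95 come from the same overlaps seen from either list, so these shares differ only through the totals of 114 and 145. Only 6 of the 114 and 8 of the 145 had a partner with a score under 1000, and the lowest partner scores were 425.37 in the shFTO list and 71.34 in the shCtrl list. For comparison, of the shared peaks with a score from 1000 to 3100, 42 of 305 in the shCtrl list (13.8%) and 13 of 319 in the shFTO list (4.08%) had a partner at 3100 or above. A shared peak at the limit in 1 list therefore seldom had a weak partner, while the 807 peaks described here had no listed partner at all. As the numbering shows, the lists left out most called peaks, so a missing peak is not a measured loss of m6A.

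**Figure D2:**
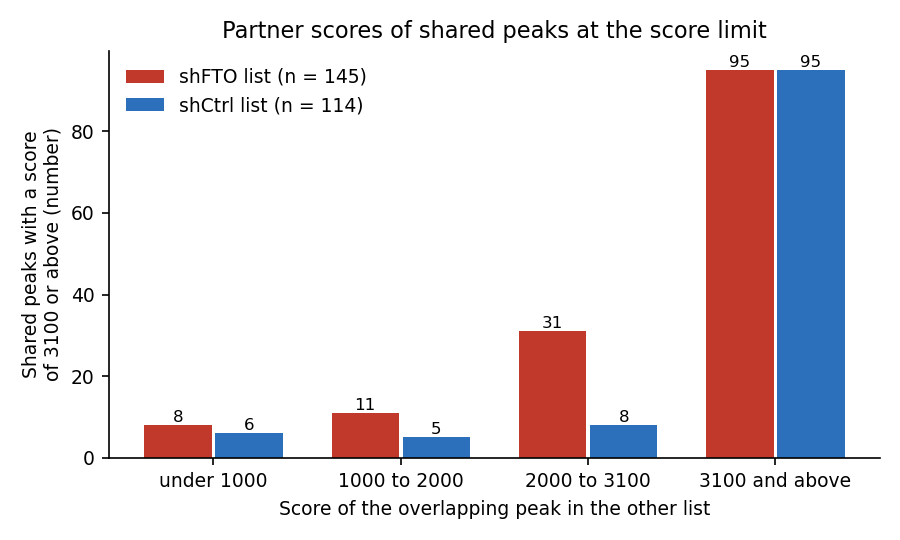
Number of shared peaks with a score of 3100 or above (y axis) by the score of the peak they overlapped in the other list (x axis), for 145 shFTO and 114 shCtrl peaks. In each list 95 of them overlapped a peak that had also reached 3100, and 8 and 6 overlapped a peak under 1000. The counts of 95 come from the same overlaps seen from either list.

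The list-specific peaks at the limit were wide, and about equally wide in both lists. Their median width was 855.5 bp in the shFTO list (95% order-statistic interval 756 to 949 bp, n = 494 peaks, range 52 to 6845 bp) and 822 bp in the shCtrl list (695 to 964 bp, n = 313, range 34 to 5627 bp). The middle 50% of widths ran from 389.5 to 1747.25 bp and from 378 to 1704 bp. Both medians were far above those of the list-specific peaks under 3100, which were 219 bp (214 to 225 bp) in the shFTO list and 198 bp (193 to 202 bp) in the shCtrl list. Width rose with score below the limit too, so great width was not particular to the limit. The medians of list-specific peaks under a score of 100 were 170 bp (shFTO) and 151 bp (shCtrl). From 2000 to 3100 they were 766 bp and 663.5 bp. The medians at the limit were close to those of the shared peaks at 3100 or above, which were 865 bp (682 to 1080 bp) and 829 bp (614 to 1072 bp). At the limit, peaks with and without a partner thus had similar widths. Under it, shared peaks were the wider ones, with medians of 288 bp (264 to 316 bp) and 270 bp (251 to 290 bp).

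With all scores under 3100 pooled, the lists differed less in width at the limit than under it. The mean width was 1239 bp in the shFTO list and 1151 bp in the shCtrl list, a ratio of 1.08, while it was 461 bp and 347 bp among the list-specific peaks under 3100, a ratio of 1.33. The contrast was smaller for the medians, whose ratios were 1.04 at the limit and 1.11 under it. It did not hold in every score class. The shFTO median was the lower one from 500 to 1000 (359 against 375 bp) and from 1000 to 2000 (501 against 526.5 bp). From 2000 to 3100 and in the classes under 500 it was the higher one, with 766 against 663.5 bp from 2000 to 3100. The shFTO to shCtrl ratio of the number of peaks was 1.58 at the limit and 1.01 under it. The excess was not particular to the limit, since there were 944 shFTO and 676 shCtrl list-specific peaks with scores from 500 to 1000, 657 and 448 from 1000 to 2000, and 279 and 184 from 2000 to 3100. The shCtrl list had more at low scores, with 2644 against 2296 under 100 and 2156 against 1860 from 100 to 200. The 494 shFTO peaks covered 612136 bp, 11.1% of the bases in their list, and the 313 shCtrl peaks covered 360213 bp, 8.74% of theirs. The ratio of these lengths, 1.70, therefore came mostly from the number of peaks. Because a P value also depends on read depth, which is unknown here, the larger number in shFTO cells and a difference in depth cannot be told apart.

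By class of width, 43.3% of the shFTO peaks (214 of 494, 39.0% to 47.7%) and 42.5% of the shCtrl peaks (133 of 313, 37.1% to 48.0%) were 1000 bp or wider. Peaks of 2000 bp or wider made up 20.2% (16.9% to 24.01%) and 17.9% (14.0% to 22.5%). At the other end, 11.7% (9.19% to 14.9%) and 13.4% (10.1% to 17.6%) were under 200 bp, a class that held 45.8% and 50.3% of the list-specific peaks under 3100. Both lists thus had nearly the same mixture of narrow and wide peaks at the limit, with intervals that overlapped in every class named here.

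**Figure D3:**
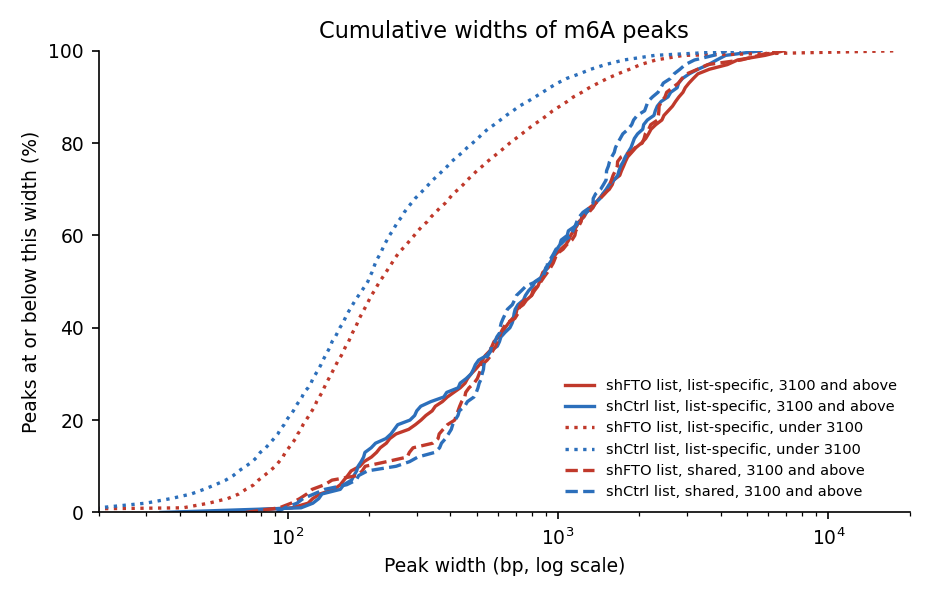
Percent of peaks (y axis) at or below a given width in bp (x axis, log scale), for list-specific peaks at 3100 and above, list-specific peaks under 3100 and shared peaks at 3100 and above. The curves of the list-specific peaks at 3100 and above have medians of 855.5 bp (shFTO) and 822 bp (shCtrl), far to the right of those under 3100, with 219 bp and 198 bp.

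The widest of these peaks were long single blocks. In the shFTO list the 5 widest lay at chr10:129900843-129907687 (minus strand, 6845 bp), chr16:2811562-2818262 (plus, 6701 bp), chr16:89345480-89352057 (minus, 6578 bp), chr17:37560668-37566974 (minus, 6307 bp) and chr9:34366808-34373004 (minus, 6197 bp). The first was followed at 5504 bp by a shCtrl peak on the same strand, chr10:129913192-129914271, which was at 3100 too. The third was followed at 13234 bp by the shCtrl peak chr16:89365292-89367370 on the same strand, again at 3100. The nearest shCtrl peak of the second was 7189 bp away on the opposite strand and had a score of 2746.44. For the fourth it was 82029 bp away with a score of 184.86. For the fifth, the nearest shCtrl peak was 37609 bp away and had a score of 64.07. The nearest peak of the other list was thus strong for some of the widest shFTO peaks and weak for others.

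The 5 widest shCtrl peaks lay at chr9:109686414-109692040 (plus strand, 5627 bp), chr3:121412588-121417776 (minus, 5189 bp), chr3:49568230-49572994 (plus, 4765 bp), chr16:70695570-70699739 (plus, 4170 bp) and chr19:13205449-13209610 (plus, 4162 bp). The nearest shFTO peaks were at 9156, 27983, 125278, 12415 and 12779 bp and had scores of 107.75, 110.07, 98.72, 3100 and 2954.91. The 5 widest shFTO peaks of this kind were each wider than the widest shCtrl peak of this kind.

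The narrowest peaks had the same score limit at a far smaller width. Those of the shCtrl list lay at chr1:43159161-43159194 (plus strand) and chr19:18043824-18043857 (plus), both 34 bp, followed by chr1:205693054-205693109 (minus, 56 bp), chr6:34309639-34309749 (minus, 111 bp) and chr19:39191642-39191761 (plus, 120 bp). Those of the shFTO list lay at chr9:100774703-100774754 (plus, 52 bp), chr16:15091610-15091683 (plus, 74 bp), chr19:10283766-10283850 (minus, 85 bp), chr6:34261228-34261312 (minus, 85 bp) and chr9:86592604-86592701 (minus, 98 bp). The narrow peaks of both lists on chromosome 6 lay on the same strand, 48326 bp apart, and were each other's nearest peak in the other list. Under 100 bp there were 5 shFTO and 3 shCtrl peaks.

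The peaks fell evenly on both strands. The plus strand held 247 of 494 shFTO peaks (an even split, 45.6% to 54.4%) and 164 of 313 shCtrl peaks (52.4%, 46.9% to 57.9%). The list-specific peaks under 3100 had 51.7% and 51.35% on the plus strand, inside both intervals.

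Chromosome 19, the most gene-dense human chromosome, held more of these peaks than any other chromosome in both lists. It carried 68 of 494 shFTO peaks (13.8%, 11.0% to 17.1%) and 42 of 313 shCtrl peaks (13.4%, 10.1% to 17.6%). Of the list-specific peaks under 3100 it carried 5.95% (5.45% to 6.50%) and 5.52% (5.03% to 6.05%), and of the shared peaks at 3100 or above 8.97% (5.31% to 14.7%) and 9.65% (5.47% to 16.5%). Chromosome 19 thus held a larger share of the list-specific peaks at the limit than of those under it, while the interval for the shared peaks at the limit overlapped that for the list-specific ones. Put per chromosome, 12.8% (10.2% to 15.9%) of the list-specific shFTO peaks on chromosome 19 reached 3100 against 5.95% over all chromosomes, and 8.96% (6.69% to 11.9%) of the shCtrl peaks did against 3.89%.

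Several other chromosomes stood above or below these overall shares. In the shFTO list 9.11% (6.81% to 12.1%) of the list-specific peaks on chromosome 17 reached 3100, and the interval lay above the overall share, while the shCtrl share there, 4.29% (2.80% to 6.54%), took in its overall share. On chromosomes 2 and 3 the shares were 2.84% (1.76% to 4.57%) and 2.93% (1.69% to 5.06%), with intervals under it, while chromosome 4, with 3.78% (2.12% to 6.64%), took it in. In the shCtrl list the shares of chromosomes 3 and 4 were low, with 1.65% (0.800% to 3.36%) and 1.43% (0.557% to 3.61%), and chromosome 2, with 3.24% (2.06% to 5.06%), took in the overall share. Chromosome 3 was thus low in both lists. The shares of the 23 chromosomes other than Y ran broadly in the same order in both lists, with a Spearman rho of 0.59, as a description of points that share the gene content of each chromosome.

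**Figure D4:**
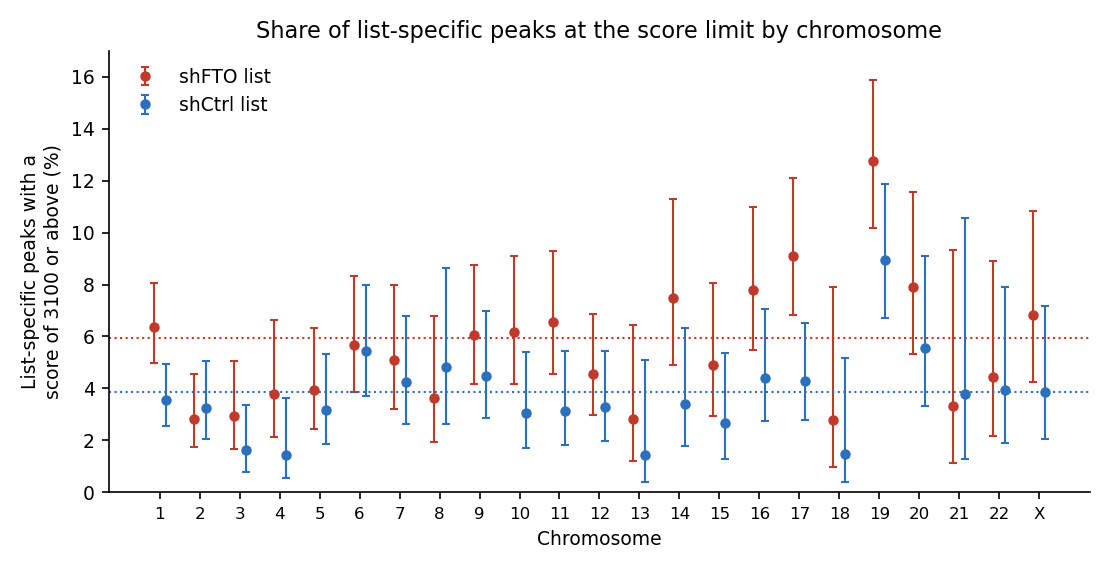
Percent of the list-specific peaks of each chromosome that had a score of 3100 or above (y axis), for the shFTO and shCtrl lists, with 95% Wilson intervals as bars and the share over the chromosomes shown as dotted lines. Of the chromosomes shown, 19 is highest in both lists, at 12.8% and 8.96%, and chromosome Y, with 0 and 2 such peaks, is left out.

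Relative to the number of genes, chromosome 19 led among the chromosomes other than Y. RefSeq lists 1451 protein-coding genes on chromosome 19 in GRCh38.p14, which gives 46.9 shFTO and 28.9 shCtrl peaks per 1000 genes, against 24.7 and 15.6 over all chromosomes. Chromosome 20 followed with 42.8 and 26.1 per 1000 genes (23 and 14 peaks over 537 genes). Outside chromosome Y, the shFTO list was lowest on chromosome 18, with 11.1 per 1000 genes (3 peaks over 270 genes). The shCtrl list was lowest on chromosome 4, with 5.20 per 1000 genes (4 peaks over 769 genes). The number of peaks at the limit per gene thus varied several-fold between chromosomes, but these lowest values rest on few peaks.

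On chromosome 19 these peaks had lower median widths than elsewhere. Their median width there was 472.5 bp (351 to 646 bp, n = 68) in the shFTO list against 915.5 bp (831 to 1040 bp, n = 426) on the other chromosomes. In the shCtrl list it was 461 bp (288 to 1267 bp, n = 42) against 885 bp (748 to 991 bp, n = 271), with overlapping intervals. The shared peaks at the limit also had lower medians there, but few of them lay on chromosome 19. In the shFTO list the medians were 452 bp (143 to 1220 bp, n = 13) against 925.5 bp (710 to 1155 bp). In the shCtrl list they were 506 bp (180 to 1658 bp, n = 11) against 894 bp (621 to 1136 bp). With intervals this wide, these peaks cannot show whether the pattern was particular to peaks without a partner. Under 3100 the list-specific peaks of chromosome 19 were not narrower, with medians of 237 bp against 218 bp and 222 bp against 196 bp. The share of chromosome 19 was 22.6% (16.7% to 29.8%) among shFTO peaks under 500 bp and 8.41% (5.39% to 12.9%) among those of 1000 bp or wider. The shCtrl shares were 21.6% (14.7% to 30.5%) and 12.03% (7.54% to 18.6%).

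Between the lists the chromosomes did not differ beyond counting error. The shFTO list held 61.2% (57.8% to 64.5%) of the 807 peaks, and it held more than the shCtrl list on 18 of 24 chromosomes, fewer on 3 and as many on 3. The interval of no single chromosome left out 61.2%. On chromosome 19 the shFTO share was 61.8% (52.5% to 70.4%), and among the chromosomes with at least 30 of the 807 peaks it ran from 47.1% (31.5% to 63.3%) on chromosome 2, with 16 and 18 peaks, to 70.0% (54.6% to 81.9%) on chromosome 11, with 28 and 12 peaks. The 2 peaks on chromosome Y were both from the shCtrl list, at chrY:1455045-1455652 and chrY:1460792-1461039. They lie in the end of Y that is shared with X, where hg19 places the X copy 50000 bp further on. At that offset the second matched, base for base, a shCtrl peak of the same group, chrX:1510792-1511039, and the first matched no peak of either list.

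Most windows of 1000000 bp that held any of these peaks held a single one from a given list. The shFTO peaks lay in 348 such windows, of which 249 held 1 of them and 30 held 3 or more. The shCtrl peaks lay in 245 windows, of which 195 held 1 and 14 held 3 or more, and 108 windows held peaks of both lists. Windows with 4 or more were few, 10 in the shFTO list and 3 in the shCtrl list, of which 4 and 2 lay on chromosome 19. The window chr19:11000001-12000000 was dense in both, with 5 of its 21 list-specific shFTO peaks and 4 of its 12 list-specific shCtrl peaks at the limit. The fullest shFTO windows were chr14:23000001-24000000 and chr19:1000001-2000000. They held 6 each, among 20 and 18 list-specific shFTO peaks, and 1 shCtrl peak each. Over the whole lists 5.95% (shFTO) and 3.89% (shCtrl) of the list-specific peaks were at the limit. These windows were picked for their number of peaks at the limit.

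With strand ignored, the distance to the nearest other peak of the same list had similar medians in both lists. It was counted as the number of bases between the edges of 2 peaks. Its median was 13736.5 bp in the shFTO list (11762 to 16040 bp) and 14489 bp in the shCtrl list (11708 to 23125 bp). The list-specific peaks under 3100 had medians of 16045 bp (15367 to 16842 bp) and 17921 bp (17142 to 18958 bp). When only peaks on the same strand were searched, the medians were 16910 bp in the shFTO list and 31101 bp in the shCtrl list, so the similarity did not hold there.

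The distance to the nearest peak of the other list was a little longer for shFTO than for shCtrl peaks. From a shFTO peak the nearest shCtrl peak was at a median of 19382.5 bp (15754 to 22364 bp), and from a shCtrl peak the nearest shFTO peak was at 14936 bp (11153 to 19716 bp), with intervals that overlapped. The list searched from the shCtrl side holds more peaks and covers more bases, and a link of this with the distances was not tested. For the list-specific peaks under 3100 the order was the other way. Their medians were 18109 bp (17247 to 18911 bp) from shFTO and 19060 bp (18190 to 20132 bp) from shCtrl peaks. Within 10000 bp, 35.0% of the shFTO peaks (173 of 494, 30.9% to 39.3%) and 39.9% of the shCtrl peaks (125 of 313, 34.7% to 45.5%) had a peak of the other list, against 36.6% and 35.9% of the list-specific peaks under 3100. Within 1000 bp these were 16 of 494 and 9 of 313, or 3.24% and 2.88%. The intervals of the peaks at the limit took in the shares of the weaker peaks in both lists, and most peaks at the limit had no peak of the other list within 10000 bp.

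Narrow peaks had lower median distances to other peaks than wide ones, but the intervals were apart in only 1 of 4 comparisons, that within the shFTO list. In the shFTO list the median distance to the nearest peak of the same list was 9276 bp (7390 to 12350 bp) for the 155 peaks under 500 bp and 19055.5 bp (13818 to 24266 bp) for the 214 of 1000 bp or wider. In the shCtrl list it was 9632 bp (6628 to 13350 bp) for 102 peaks and 24111 bp (12567 to 32980 bp) for 133 peaks. The distance to the other list ran the same way, with 13778 bp (10124 to 20872 bp) against 25487.5 bp (18926 to 34820 bp) for shFTO and 9449.5 bp (6446 to 13445 bp) against 19716 bp (12567 to 29973 bp) for shCtrl.

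The extremes show the range of these settings. The shFTO peak at chr6:43471361-43474291 (plus strand, 2931 bp) lay 114 bp from a shCtrl peak of 682 bp with a score of 473.02, chr6:43470565-43471246, on the same strand. The shCtrl peak at chr17:61497360-61500283 (plus, 2924 bp) ended 465 bp before a shFTO peak of 4239 bp, chr17:61500749-61504987, with a score of 339.95. By contrast, the shFTO peak at chr4:30722030-30726380 (plus, 4351 bp) had no shCtrl peak within 3762681 bp and no other shFTO peak within 4288022 bp. The most isolated shCtrl peak, chr6:21593986-21597446 (plus, 3461 bp), had no shFTO peak within 1101348 bp.

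The neighbours of these peaks were stronger than those of weaker list-specific peaks. Among shFTO peaks with a peak of their own list within 10000 bp, 23.2% (47 of 203, 17.9% to 29.4%) had a nearest peak that also reached 3100, against 5.36% (4.62% to 6.21%) for the list-specific peaks under 3100. Among shCtrl peaks the shares were 21.0% (26 of 124, 14.7% to 29.0%) and 3.82% (3.18% to 4.60%). The shared peaks at the limit were similar, with 21.2% (14 of 66, 13.1% to 32.5%) and 16.7% (8 of 48, 8.70% to 29.6%), so strong neighbours were not particular to peaks without a partner. Across the lists the pattern was the same. The nearest shCtrl peak of a shFTO peak at the limit reached 3100 in 14.5% (25 of 173, 9.98% to 20.5%) against 3.74% (3.11% to 4.50%), and the nearest shFTO peak of a shCtrl peak at the limit did in 21.6% (27 of 125, 15.3% to 29.6%) against 5.55% (4.75% to 6.46%). The median score of these neighbours in the other list was 533.99 and 939.08, against 188.94 and 233.89 beside the weaker peaks. Strong peaks of 1 condition thus lay near strong but separate peaks of the other condition more often than weak peaks did.

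The neighbours were less often on the same strand. The nearest shCtrl peak within 10000 bp of a shFTO peak at the limit was on the same strand in 82.1% (142 of 173, 75.7% to 87.1%), against 92.7% (91.6% to 93.6%) for list-specific shFTO peaks under 3100. From the shCtrl side the shares were 86.4% (108 of 125, 79.3% to 91.3%) and 91.6% (90.5% to 92.6%). Within the same list they were 86.7% (81.3% to 90.7%) against 93.2% (92.3% to 94.1%) for shFTO and 80.6% (72.8% to 86.6%) against 92.1% (91.0% to 93.0%) for shCtrl. For the shared peaks at the limit the shares within the same list were 87.9% (77.9% to 93.7%) and 85.4% (72.8% to 92.8%), with intervals that overlapped those of the list-specific peaks at the limit. Of the 4 comparisons with weaker peaks, the intervals overlapped for the shCtrl peaks searched against the shFTO list. In the shFTO list the same-strand share with the other list was 92.1% (82.7% to 96.6%) for peaks under 500 bp and 75.8% (63.8% to 84.8%) for those of 1000 bp or wider. For shCtrl it was 90.4% (79.4% to 95.8%) and 85.1% (72.3% to 92.6%).

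**Figure D5:**
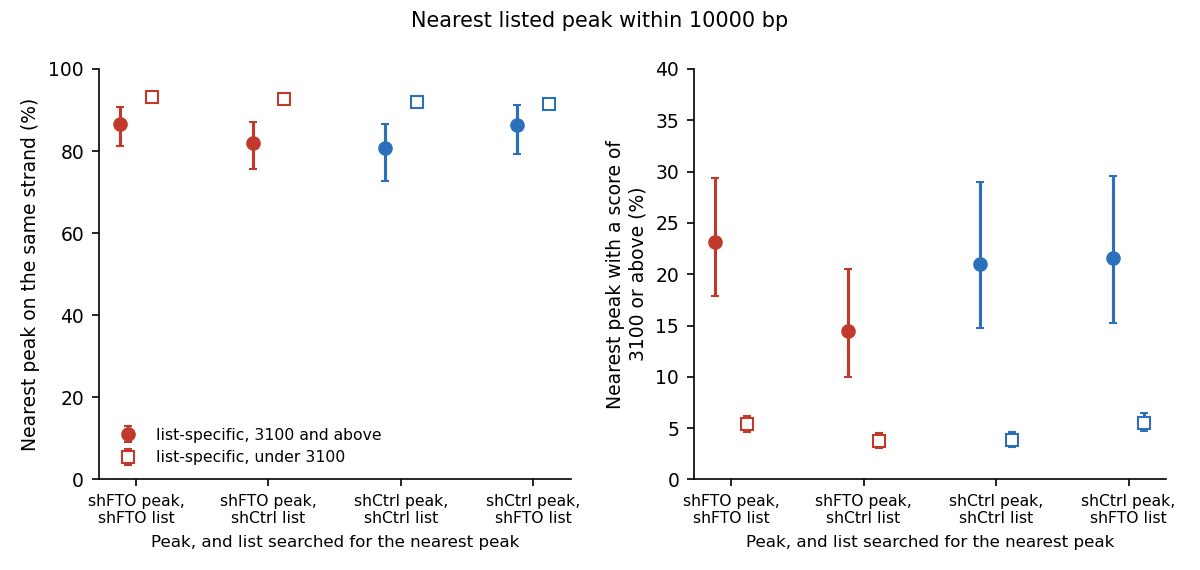
For peaks with another listed peak within 10000 bp, the percent whose nearest peak was on the same strand (left) and the percent whose nearest peak had a score of 3100 or above (right), with 95% Wilson intervals as bars. Filled points are list-specific peaks at 3100 and above and open squares are list-specific peaks under 3100, and the filled points are lower on the left (80.6% to 86.7%) and higher on the right (14.5% to 23.2%) in all 4 searches.

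The peak numbers that the caller gave add a second measure of distance. In both lists the numbers rose with position on all 24 chromosomes without exception, up to 161598 in the shFTO list and 173974 in the shCtrl list. The difference between the numbers of neighbouring listed peaks therefore counts the called peaks between them that were not listed. Between a shFTO peak at the limit and the nearest listed peak there was a median of 3 unlisted peaks (middle 50% from 1 to 8), and between a shCtrl peak and its neighbour a median of 4 (1 to 10). No unlisted peak lay between in 20.9% (17.5% to 24.7%) and 19.5% (15.5% to 24.2%), against 19.7% and 16.9% for the list-specific peaks under 3100. Peaks at the limit thus had about as many unlisted neighbours as weaker peaks.

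When the 807 peaks of both lists were put in order along the chromosomes, 55 of 783 neighbouring pairs were within 10000 bp of each other. Of these, 23 joined a shFTO with a shCtrl peak, 22 joined 2 shFTO peaks and 10 joined 2 shCtrl peaks. The same strand was shared by 22 of the 23 mixed pairs, 19 of the 22 and 7 of the 10. Over all 783 neighbouring pairs, 369 were mixed, 296 joined 2 shFTO peaks and 118 joined 2 shCtrl peaks. The split of the 55 close pairs was near this one. Of the 807 peaks, 705 (87.4%) had no other such peak within 10000 bp.

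The closest mixed pair lay on opposite strands, with 152 bp between chr3:48507264-48509044 (shCtrl, plus strand, 1781 bp) and chr3:48509197-48510972 (shFTO, minus, 1776 bp). Both were nearly equal in width. The next 4 mixed pairs were each on a single strand. They were chr19:892347-892815 (shFTO) and chr19:893086-893218 (shCtrl), 270 bp apart, chr19:2428163-2430950 (shCtrl) and chr19:2431781-2431900 (shFTO), 830 bp apart, chr19:11552055-11552172 (shFTO) and chr19:11553201-11553330 (shCtrl), 1028 bp apart, and chr10:99473663-99475742 (shCtrl) and chr10:99476951-99477909 (shFTO), 1208 bp apart. Of these 5 closest pairs 3 lay on chromosome 19.

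Pairs within 1 list were of the same kind. The closest shFTO pairs were chr17:4849923-4850764 with chr17:4851558-4852249 (minus strand, 793 bp apart), chr10:129899522-129899965 with the widest of the 807 peaks (minus, 877 bp) and chr9:100773553-100773671 with chr9:100774703-100774754 (plus, 1031 bp), which is the narrowest shFTO peak. They were followed by chr6:26250370-26250835 (minus) with chr6:26251879-26252303 (plus), 1043 bp apart on opposite strands, and chr1:27267948-27268151 with chr1:27269362-27269556 (plus, 1210 bp). The closest shCtrl pairs were chr9:136226826-136227005 (plus) with chr9:136228325-136230635 (minus), 1319 bp apart, chr22:36681167-36681375 with chr22:36682764-36682892 (minus, 1388 bp) and chr17:4923787-4923973 with chr17:4925387-4926004 (plus, 1413 bp). The next were chr17:73744922-73745126 with chr17:73746761-73746941 (plus, 1634 bp) and chr19:14625576-14626982 with chr19:14628951-14629342 (minus, 1968 bp).

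Neighbours within 10000 bp joined 102 peaks into 47 groups, of which 40 lay on a single strand, 21 held peaks of both lists, 18 held shFTO peaks alone and 8 held shCtrl peaks alone. Only 6 groups had 3 or more peaks. The 2 largest had 4 each, at chr19:11101826-11113835 (plus strand, 1 shFTO and 3 shCtrl peaks) and at chr9:139388896-139410168 (minus strand, 3 shFTO and 1 shCtrl peaks). The group at chr10:129899522-129914271 (minus strand) held the widest peak, another shFTO peak and 1 shCtrl peak. All 6 of these groups held peaks of both conditions, but mixed pairs were also the most frequent kind among all neighbouring pairs.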

How the data were processed

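RNA of FTO knockdown (sh) and control (Ctrl) RWPE1 cells was measured by MeRIP-seq, with 1 IP and 1 input library per condition. Per the labels the libraries are 4 separate samples, and each deposited peak list was tied to its condition by the name it carries. The submitters' processing notes name cutadapt 1.9.3, HISAT2 and hg19. The deposited lists give position, MACS peak number, score and strand of each peak, and the authors made 1 list per condition. The peak caller's settings and the rule by which called peaks entered the lists are not given in the sources used here. The deposited score was used as listed and was not rescaled between the lists, and no read depth was available from it.

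Overlaps, widths and edge-to-edge distances were computed with Python 3.11.15, pandas 2.3.3, NumPy 2.4.6 and SciPy 1.17.1, and plots with matplotlib 3.10.9. A peak was list-specific when it shared less than 1 bp with the other list. Shares have 95% Wilson intervals and medians 95% order-statistic intervals, which cover counting error only, because peaks of 1 library are not replicates. No test was run. The overlap and distance steps were tested on simulated peaks and recovered all 1000 shared and 4000 list-specific peaks and all 5000 gaps. The peaks named singly were the 5 widest and 5 narrowest of each list, examples of those above 3100, those nearest to and farthest from the other list, the 5 closest pairs of each kind, the largest groups and the peaks on chromosome Y. The examples above 3100, the peaks nearest to and farthest from the other list, the groups and those on Y were chosen after their values were seen. The peaks and the measures were chosen with earlier results of these data known. RefSeq (GRCh38.p14) was used only for the number of protein-coding genes per chromosome. Gene names, gene features and sequence motifs were not analysed here.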

Additional observations from a re-analysis of the deposited data

How the results depend on the processing

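With 10 alternative settings for 12 results, 37 of 48 values moved by less than their counting interval or, for counts, by less than 1.5-fold. Other overlap rules, merging of neighbouring peaks, a score of exactly 3100 and leaving out the widest 5% of peaks were among the settings that moved no value further. A lower score limit raised the number of peaks to 773 in the shFTO list and 497 in the shCtrl list at 2000, and to 1430 and 945 at 1000. At 1000 the median width fell to 686.5 bp and 663 bp. The share of chromosome 19 fell to 10.2% in the shFTO list and to 10.6% in the shCtrl list, the latter inside its counting interval. When only peaks on the same strand were searched, the median distance within the list rose to 16910 bp (shFTO) and 31101 bp (shCtrl), and that to the other list to 26462 bp and 22139 bp.

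Leaving out a replicate was not possible with 1 IP and 1 input library per condition. No paired analysis was possible because there was a single IP library on either side and no result came from a test. The gene feature and motif alternatives were not run, since no genome of the build was used here. The score depends on depth, which is unknown for both lists, so equal scores need not mean equal enrichment, and the limit at 3100 hides any order among the strongest peaks.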
